A study of Mus musculus with 10 samples.

Results

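The genes described here are 10 that encode integrin subunits and other adhesion molecules of T cells, namely Itga4, Itga6, Itgal, Itgav, Itgb1, Itgb2, Itgb3, Itgb7, Cd44 and Selplg. They were chosen by symbol from the 49671 gene IDs of a table of RNA sequencing counts, and each symbol matched 1 ID. The cells were mouse TH2 cells, the helper subset behind type 2 immunity, grown from naive CD4+ T cells of C57BL/6 mice labelled WT and harvested on day 5 of polarisation. The vitamin D-deficient group held 7 libraries from mice bred and kept UV-free, with food that contained no vitamin D metabolites. The regular group held 3 libraries from mice kept in otherwise like conditions, whose standard diet supplied vitamin D3 at 400 IU/kg. Animals of both groups were offspring of the second generation. Batch 1 held deficient libraries 1 to 5 and regular libraries 1 and 2, and batch 2 held deficient libraries 6 and 7 and regular library 3. Whether each library stands for its own mouse or culture is not stated, so the spread behind the p-values may be technical.

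Integrins are surface receptors built from an alpha and a beta chain, and a chain can pair with more than 1 partner. On T cells α4 pairs with β1 to bind VCAM-1 and fibronectin, or with β7 to bind MAdCAM-1 on gut vessels. The pair of αL and β2, called LFA-1, binds ICAM-1 and holds a T cell to a vessel wall or an antigen-presenting cell. The αv chain pairs with β3, among others, in a receptor for vitronectin and osteopontin, and α6 pairs with β1 in a receptor for laminin. CD44 binds hyaluronan and is a common marker of activated T cells, while PSGL-1, the product of Selplg, is a ligand of the selectins. The comparison asked how vitamin D deficiency of the mice altered the transcripts of TH2 cells.

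The alpha chain α4 and its partners β1 and β7 are shown by sequence because the transcripts of the partners changed in opposite directions. RefSeq start sites on GRCm38.p6 were available for 5 of the 10 genes (Itga4, Itgb1, Itgb7, Itgav and Cd44). The 250 bases upstream of the start are printed from 5′ to 3′ on the strand of the gene. Capitals mark matches, on either strand, to the vitamin D receptor half-sites AGGTCA or AGTTCA or GGGTCA or GGTTCA, the GATA motifs AGATAA or TGATAA, the RUNX motif TGTGGT, the T-box motif GGTGTGA and the GC box GGGCGG.
Itga4, chr2:79255176-79255425, plus strand: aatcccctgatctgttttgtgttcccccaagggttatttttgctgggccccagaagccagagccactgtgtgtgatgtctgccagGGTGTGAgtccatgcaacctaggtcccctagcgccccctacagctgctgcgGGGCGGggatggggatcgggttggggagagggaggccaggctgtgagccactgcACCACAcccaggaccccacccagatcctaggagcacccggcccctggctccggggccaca
Itgb1, chr8:128685404-128685653, plus strand: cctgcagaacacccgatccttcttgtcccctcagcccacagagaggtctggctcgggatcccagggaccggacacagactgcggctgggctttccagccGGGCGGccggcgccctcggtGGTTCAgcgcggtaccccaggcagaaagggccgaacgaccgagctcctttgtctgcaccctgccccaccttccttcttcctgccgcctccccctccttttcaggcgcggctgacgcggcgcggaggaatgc
Itgb7, chr15:102231936-102232185, minus strand: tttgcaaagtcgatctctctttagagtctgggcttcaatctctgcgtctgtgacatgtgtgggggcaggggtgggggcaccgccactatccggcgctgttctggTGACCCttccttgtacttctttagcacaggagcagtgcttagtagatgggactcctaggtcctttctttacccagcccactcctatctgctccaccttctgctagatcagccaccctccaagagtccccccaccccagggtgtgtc
A half-site of the vitamin D receptor matched 1 time in Itgb1 and 1 time in Itgb7, and had 0 matches in Itga4, Itgav and Cd44. Such a half-site was found in 38.4% of 27025 upstream windows of the same length. Itga4 held 1 RUNX match, 1 T-box match and 1 GC box, which occurred in 14.2%, 3.31% and 32.9% of all windows. GATA motifs, present in 17.0% of all windows, matched 1 time in Cd44 and 0 times in the other 4. A direct repeat of half-sites spaced by NNN had 0 matches in the 5 windows and occurred in 0.0333% of all windows. The GC content was 64.0% in Itga4, 68.0% in Itgb1 and 56.0% in Itgb7, against a median of 52.0% over all windows. Whether any of these matches bears on the changes described below was not tested.

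Library totals ran from 7029207 to 13433276 counts in the deficient group and from 5800698 to 6462146 in the regular group. Each of the 10 genes had between 63 and 5310 counts in every library, so all were tested. Levels are given as CPM, the count scaled by the library total. Markers of CD4 T and TH2 cells, 10 of 10 tested with 2 higher and 6 lower, summed to 1327 to 1520 CPM in deficient libraries. In regular libraries they summed to 1872 to 1921 CPM. Among those lower, Cd4 averaged 335 ± 30.9 CPM in deficient libraries and 723 ± 13.8 CPM in regular libraries (SD, n = 7 and 3). The TH2 regulator Gata3 averaged 36.7 ± 3.95 CPM in deficient libraries and 62.0 ± 4.49 CPM in regular libraries (SD, n = 7 and 3), and the cytokine gene Il13 averaged 200 ± 38.1 CPM in deficient libraries and 80.9 ± 17.0 CPM in regular libraries. Markers of CD8 T and cytotoxic cells, among them Gzmb and Nkg7, summed to 688 to 1040 CPM in deficient libraries 1 to 4, 1491 to 1958 CPM in deficient libraries 5 to 7 and 99.4 to 202 CPM in regular libraries. Of the 11 cytotoxic markers 10 were tested, of which 8 were higher and 0 lower. Cd8a averaged 24.7 ± 21.6 CPM in deficient libraries and 0.730 ± 0.778 CPM in regular libraries. Cd8b1 averaged 58.4 ± 34.0 CPM in deficient libraries and 9.83 ± 4.36 CPM in regular libraries. B cell markers, 8 of 9 tested with 2 higher and 0 lower, summed to 55.5 to 84.4 CPM in deficient libraries 1 to 4, 295.6 to 334 CPM in deficient libraries 5 to 7 and 12.8 to 104.5 CPM in regular libraries. Myeloid markers, 5 of 11 tested with 2 higher and 1 lower, summed to 16.6 to 25.5 CPM in deficient libraries and 19.8 to 24.8 CPM in regular libraries, and neutrophil and stromal markers had 0 genes tested and summed to at most 0.854 and 2.47 CPM. The platelet genes Pf4, Ppbp, Gp9, Gp1ba, Gp1bb and Gp6 stood at 0 to 0.469 CPM in every library, and Itga2b is described with the integrins. Xist, the RNA of the silenced X chromosome of female cells, read 657 and 733 CPM in deficient libraries 1 and 3, at most 0.117 CPM in the other deficient libraries and at most 0.345 CPM in regular libraries. Without deficient libraries 1 and 3 the 10 genes kept their directions and calls. In RNA from whole cultures, fewer cells of a type and less RNA per cell cannot be told apart.

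Between the diets, 8 of the 10 genes differed. Transcripts of the α4, αv and β1 chains were higher in the deficient cells, by 1.38-fold to 1.51-fold, and those of α6, β3, β7, β2 and CD44 were lower. Among the 10, the largest differences by fold were in Itgb3, at 35.5 ± 9.73 CPM in deficient libraries and 116.6 ± 3.34 CPM in regular libraries, and Itga6, at 38.6 ± 3.81 CPM in deficient libraries and 112 ± 0.467 CPM in regular libraries (SD, n = 7 and 3). The test was edgeR's quasi-likelihood test with batch as a term, and a call needed a p below 0.05 after Benjamini-Hochberg adjustment over all 13699 genes tested. The 3 genes higher and 5 lower compare with 29.4% and 28.6% of all genes tested, together 58.0%, so a gene drawn from all those tested was also more often called than not. The median log2 fold change was -0.32 over the 10 genes and 0.02 over all genes tested. In 8 of the 10 genes the CPM values of the diets did not overlap, as in 50.8% of all genes tested (29.4% higher and 21.4% lower in deficient libraries). The 8 were the called genes except Itgb2, together with Itgal. Overlap was judged on counts scaled by library totals, whereas the fit used another scaling (TMM). With total-count scaling in the fit, the log2 fold change was 0.30 for Itgal and -0.29 for Itgb2, against 0.22 and -0.38 with TMM. Whether the groups overlap under TMM was not tested.

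**Figure D1:**
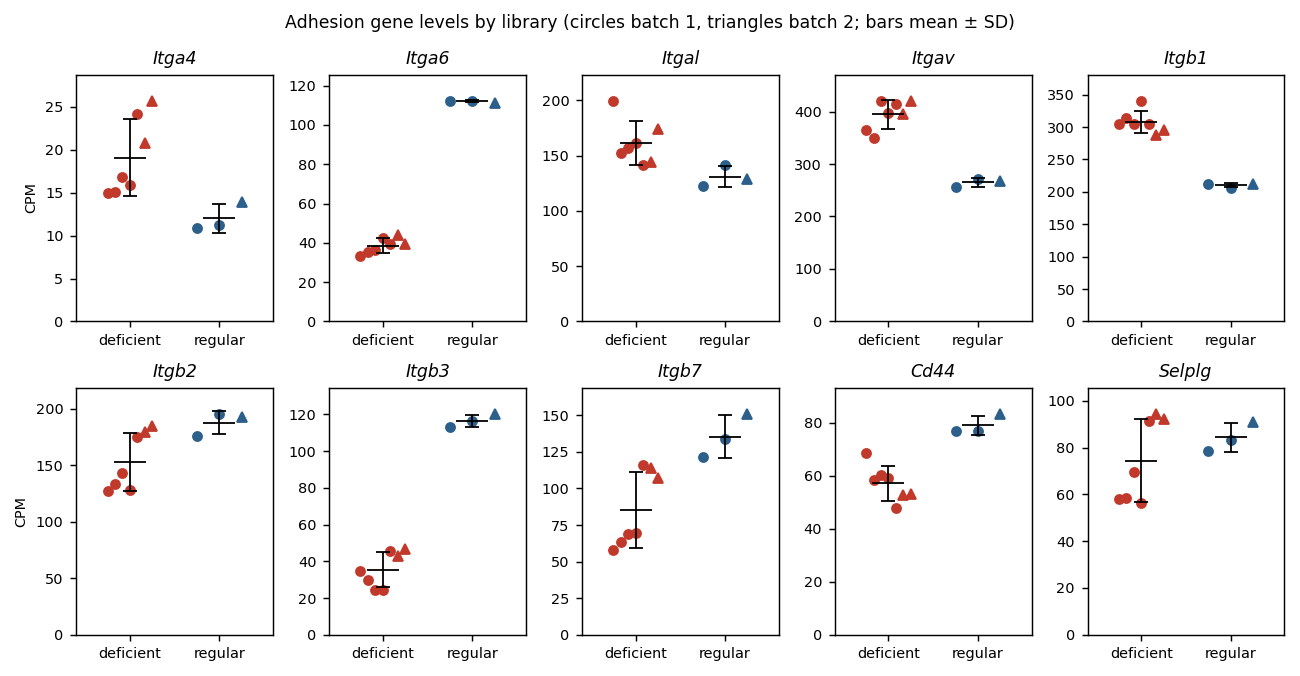
Level of each adhesion gene in CPM (vertical axis, from 0) in the 7 deficient libraries (red, left) and the 3 regular libraries (blue, right). Each point is a library, circles batch 1 and triangles batch 2, and bars give the mean ± SD. Itga6 and Itgb3 show the largest fold between the diets of the 10 genes, and Selplg and Itgb2 overlap.

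Itga4 (ENSMUSG00000027009, chromosome 2, 79255426 to 79333123 of GRCm38), which encodes the α4 chain, read 14.9 CPM at the lowest, 16.8 at the median and 25.7 at the highest deficient library, against 10.9, 11.2 and 13.9 CPM in the regular libraries. All 7 deficient libraries lay above the 3 regular ones. The log2 fold change was 0.60 (SE 0.162, adjusted p = 0.00547, edgeR). Its annotated exons share 1124 of 13978 bases with exons of Cerkl on the opposite strand, which read 3.13 to 5.98 CPM, and the strand setting of the counting is not given in the sources used here.

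Itgb1 (ENSMUSG00000025809, chromosome 8, 128685654 to 128733200) encodes the β1 chain, shared by α4, α6 and many other alpha chains. It ranged over 288 to 340 CPM with a median of 305 CPM in deficient libraries, against 212, 206 and 212 CPM in the regular libraries. The groups did not overlap, and the log2 fold change was 0.46 (SE 0.0531, adjusted p = 2.91e-06, edgeR).

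The alternative partner of α4 moved the other way. Itgb7 (ENSMUSG00000001281, chromosome 15, 102215995 to 102231944), for the β7 chain of the gut-homing integrin, read 57.9, 63.5, 69.1, 69.6, 115.7, 114 and 107 CPM in deficient libraries 1 to 7, against 121.5, 133.5 and 151 CPM in the regular libraries. Every deficient library lay below every regular one, with libraries 5 to 7 close to the lowest regular library and libraries 1 to 4 well below it. The log2 fold change was -0.75 (SE 0.198, adjusted p = 0.0106, edgeR). Without deficient libraries 5 to 7 it was -1.07, and without the filter on low counts it was -0.64 with an adjusted p of 0.0852 (edgeR).

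LFA-1 is made from Itgal and Itgb2. Itgal (ENSMUSG00000030830, chromosome 7, 127296260 to 127335138) read 142 CPM at the lowest, 157 at the median and 199 at the highest deficient library, against 122, 141 and 129 CPM in regular libraries. The values did not overlap, though the lowest deficient library stood within 1 CPM of the highest regular one. The difference of 0.22 on the log2 scale did not pass (SE 0.105, adjusted p = 0.0947, edgeR). Its call changed with total-count scaling, which moved the median of all genes to 0.10 on the log2 scale and gave Itgal 0.30 (adjusted p = 0.0173), and without deficient library 5, where it was 0.25 (adjusted p = 0.033, edgeR).

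Itgb2 (ENSMUSG00000000290, chromosome 10, 77530252 to 77565708), the β2 chain of all leukocyte integrins of the CD18 family, read 127, 133.5, 143, 128, 175, 179 and 184 CPM in deficient libraries 1 to 7, against 176, 195 and 192 CPM in regular libraries. Deficient libraries 6 and 7 lay within the range of the regular libraries, and the other 5 lay below it. The log2 fold change was -0.38 (SE 0.099, adjusted p = 0.00494, edgeR). Within batch 2 it was -0.14 and did not pass (adjusted p = 0.172, edgeR).

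The αv and β3 chains, partners in the vitronectin receptor, differed in opposite directions. Itgav (ENSMUSG00000027087, chromosome 2, 83724397 to 83806916) ranged over 349 to 420 CPM with a median of 398 CPM in deficient libraries, against 256, 271 and 268 CPM in regular libraries. All deficient libraries lay above all regular ones, and the log2 fold change was 0.49 (SE 0.0628, adjusted p = 8.63e-06, edgeR). Itgav shares 634 exonic bases with the opposite-strand gene Gm13684, which read at most 0.172 CPM.

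Itgb3 (ENSMUSG00000020689, chromosome 11, 104608000 to 104670476) read 34.7, 29.9, 24.2, 24.6, 45.8, 43.1 and 46.6 CPM in deficient libraries 1 to 7, against 113, 116 and 120 CPM in regular libraries. The highest deficient library, at 46.6 CPM, was far below the lowest regular one, at 113 CPM. In avian osteoclast precursors the β3 gene is known to be induced by the active form of vitamin D, which was not tested here. The log2 fold change was -1.80 (SE 0.187, adjusted p = 3.07e-05, edgeR), or 3.47-fold lower in deficient cells, and 2.75% of the genes tested had a lower one.

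Itga6 (ENSMUSG00000027111, chromosome 2, 71745616 to 71858416), for the laminin-binding α6 chain, read 33.3, 35.4, 36.6, 42.2, 39.5, 44.1 and 39.4 CPM in deficient libraries 1 to 7. The regular libraries stood at 112, 112 and 111 CPM, the tightest of the 10 genes. Its log2 fold change was -1.62 (SE 0.0711, adjusted p = 8.98e-11, edgeR), and 3.44% of the genes tested had a lower one. Both spreads were small beside the gap, and deficient libraries 1 to 4 and 5 to 7 overlapped.

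Cd44 (ENSMUSG00000005087, chromosome 2, 102811141 to 102901665) read 68.6, 58.4, 60.5, 59.2, 47.9, 52.8 and 53.3 CPM in deficient libraries 1 to 7, against 77.1, 77.0 and 83.3 CPM in regular libraries. Every deficient library was lower than every regular one, and libraries 5 to 7 were the lowest. The log2 fold change was -0.56 (SE 0.0956, adjusted p = 0.000143, edgeR). The counts are per gene, so the splice forms of CD44 that carry variant exons cannot be read from them.

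Selplg (ENSMUSG00000048163, chromosome 5, 113818536 to 113832644) read 58.0, 58.3, 69.4, 56.3, 91.5, 94.2 and 92.4 CPM in deficient libraries 1 to 7, against 78.4, 83.4 and 91.2 CPM in regular libraries. Deficient libraries 1 to 4 lay below the 3 regular ones and libraries 5 to 7 above them. The difference of -0.27 on the log2 scale did not pass (SE 0.149, adjusted p = 0.152, edgeR). It passed without deficient library 5 at -0.35 (adjusted p = 0.00358, edgeR). Without deficient libraries 5 to 7 it was -0.52. Those are the deficient libraries above all regular ones, so no p-value is drawn from leaving them out.

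**Figure D2:**
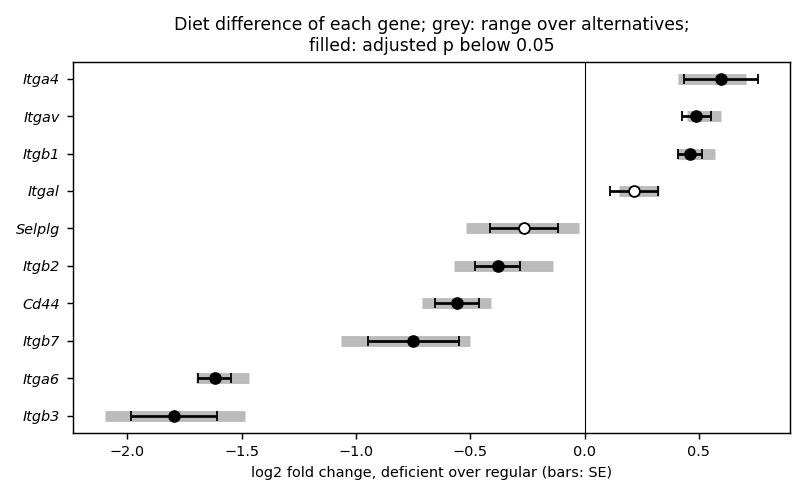
Log2 fold change of deficient over regular cells (horizontal axis) for each adhesion gene, with its standard error. Filled points have an adjusted p below 0.05 (edgeR), and grey bars span the alternative analyses. Values run from 0.60 for Itga4 down to -1.80 for Itgb3, and no grey bar crosses 0.

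Deficient libraries 5, 6 and 7 stood apart from libraries 1 to 4 in several of these genes, although library 5 carries the label of batch 1. Itgb7 ranged over 57.9 to 69.6 CPM in libraries 1 to 4 and 107 to 115.7 CPM in libraries 5 to 7. Itgb2, Selplg, Itgb3 and Itga4 likewise had every value of libraries 5 to 7 above every value of libraries 1 to 4. For Itga4 the ranges were 14.9 to 16.8 CPM in libraries 1 to 4 and 20.8 to 25.7 CPM in libraries 5 to 7. Cd44 lay lower in libraries 5 to 7, at 47.9 to 53.3 CPM, than in libraries 1 to 4, at 58.4 to 68.6 CPM. Itgb1 also lay lower there, by under 1 CPM between the nearest libraries. Only Itgal, Itgav and Itga6 overlapped between the sets among the 10 genes. The split was seen in the data and carries no label, so it was not tested. The summed cytotoxic and B cell markers given above were higher in the same libraries 5 to 7, and their part in these values was not tested. Without libraries 5 to 7, the log2 fold change was -1.07 for Itgb7, -2.10 for Itgb3 and 0.41 for Itga4. The 8 called genes kept their directions there. Because these libraries were set apart by their values, no p-value is drawn from leaving them out.

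**Figure D3:**
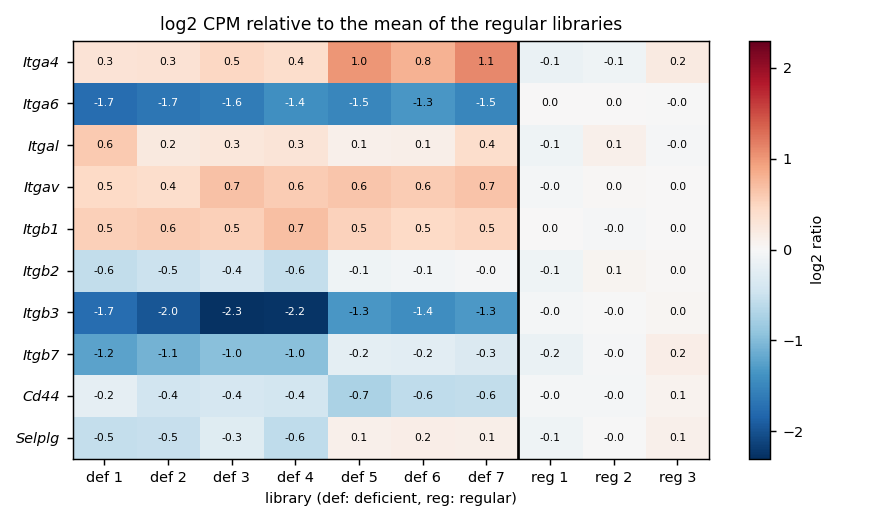
Log2 ratio of each library's CPM to the mean of the 3 regular libraries, for the 10 adhesion genes (rows), with deficient libraries 1 to 7 left of regular libraries 1 to 3. Itgb7, Itgb2 and Selplg are nearer 0 in deficient libraries 5 to 7 and below 0 in libraries 1 to 4, whereas Itga6 and Itgb3 are below -1 in all 7.

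Batch was the other labelled variable. With edgeR, 0 of the 10 genes passed for batch, as did 0% of all genes tested. An unadjusted p under 0.05 was found in 4 of the 10 (Itga4, Itgb2, Itgb7 and Selplg). Of all 13699 genes tested, 1038 had such a p, a smaller share. The deficient libraries of batch 2, 6 and 7, belong to the set 5 to 7 that stood apart in these 4 genes. Batch and that set therefore cannot be fully told apart. DESeq2 and limma also called 0 of the 10, with 5 and 4 at an unadjusted p under 0.05. Over all genes, 975 with DESeq2 and 1319 with limma had such a p. The diet difference was not shown to depend on batch for any of the 10 genes. The product of diet and batch gave 0 called and 0 with an unadjusted p under 0.05 in edgeR, DESeq2 and limma, with 0% of all genes tested called in edgeR. For this term 565 of all genes tested had an unadjusted p under 0.05 in edgeR. The largest such term was 0.45 for Itgb3 (SE 0.411, adjusted p = 0.947, edgeR), and batch 2 had only 1 regular library.

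Ratios of counts within a library do not depend on the scaling between libraries, and 5 were compared. Itgb7 over Itgb1 was 0.190, 0.203, 0.227, 0.205, 0.380, 0.396 and 0.365 in deficient libraries 1 to 7, against 0.574, 0.648 and 0.712 in regular libraries. The log2 ratio averaged -1.90 ± 0.482 in deficient libraries and -0.64 ± 0.156 in regular libraries (SD, n = 7 and 3), a difference of -1.26. Itgb3 over Itgav averaged -3.52 ± 0.402 in deficient libraries and -1.18 ± 0.0326 in regular libraries on the log2 scale, a difference of -2.33. Itga6 over Itga4 differed by -2.18 and Itgb1 over Itgb2 by 0.86. In these 4 ratios the groups did not overlap, and each gave p = 0.00833, adjusted p = 0.0104, in a two-sided exact permutation test, the smallest p that the 120 splits can give. For Itgb7 over Itgb1, Itgb3 over Itgav and Itga6 over Itga4 this result was fixed by the CPM values above. There the CPM of both genes already did not overlap, in opposite directions. For Itgb1 over Itgb2 the CPM ranges of both genes also fixed it. In deficient libraries Itgb1 read at least 288 CPM and Itgb2 at most 184 CPM. In regular libraries Itgb1 read at most 212 CPM and Itgb2 at least 176 CPM. The test thus adds no separate support for these 4 ratios. Itga4 over Itgal differed by 0.35, with overlapping groups (exact permutation p = 0.242, adjusted p = 0.242). These are ratios of counts and carry the lengths of both genes, so they are compared between libraries and not with 1.

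**Figure D4:**
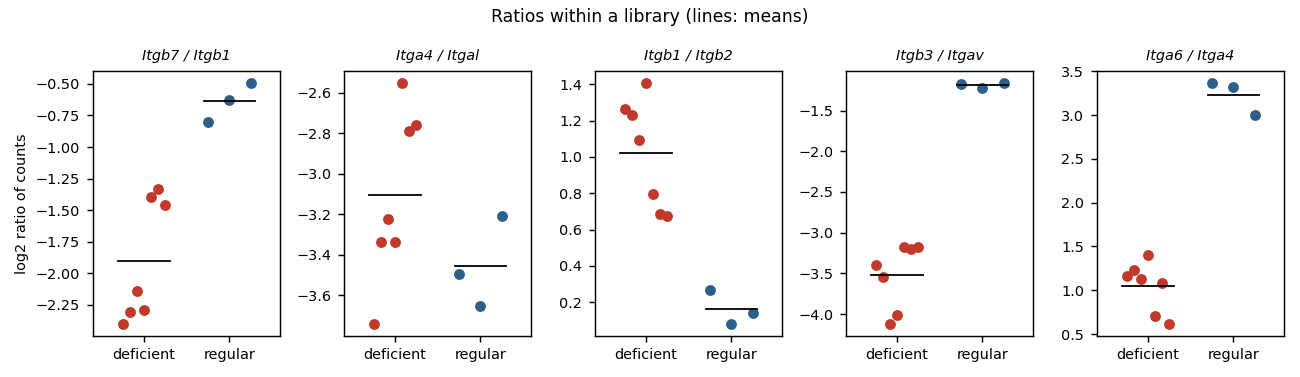
Log2 ratios of counts between gene pairs (vertical axes, each with its own range) in deficient libraries (red, left) and regular libraries (blue, right), with lines at the means. Deficient libraries lie below all regular ones for Itgb7 over Itgb1, Itgb3 over Itgav and Itga6 over Itga4 and above them for Itgb1 over Itgb2.

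Divided by the length of the merged exons, Itgb1 had the highest level of the 10 genes in deficient libraries, at 75.3 ± 4.08 CPM per kilobase, followed by Itgb2 at 50.1 ± 8.38 CPM per kilobase without overlap. In regular libraries Itgb2 led at 61.5 ± 3.42 CPM per kilobase before Itgb1 at 51.4 ± 0.781 and Itgb7 at 48.8 ± 5.30 CPM per kilobase, of which Itgb1 and Itgb7 overlapped. Itga4 was the lowest in both groups, at 1.36 ± 0.321 CPM per kilobase in deficient libraries and 0.859 ± 0.120 CPM per kilobase in regular libraries (SD, n = 7 and 3). With the longest coding length in place of the merged exons, chosen after the data were seen, Itgb1 was the first and Itga4 the last in both groups, but 10 of the 20 ranks moved. Itgav then stood above Itgb2, at 125.9 ± 8.80 CPM per coding kilobase against 66.2 ± 11.1 CPM per coding kilobase in deficient libraries, and its range overlapped that of Itgb1 in both groups. Per merged exon length in deficient libraries, the neighbours in order that overlapped were Itgav and Itgb7, Itgb7 and Itgal, Itgal and Selplg, Cd44 and Itgb3, and Itgb3 and Itga6. Itgb3 stood at 6.02 ± 1.65 CPM per kilobase in deficient libraries and 19.8 ± 0.566 CPM per kilobase in regular libraries, where it overlapped Itgal and Selplg.

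Of the other integrin genes, 11 of 18 had enough counts to be tested, of which 5 were higher and 3 lower. For this list and each list below, the matching shares of all genes tested were 29.4% higher and 28.6% lower. The number higher was 2 without regular library 2 and with a minimum count of 50, and 3 within batch 2. Their median log2 fold change was 0.09, against 0.02 over all genes tested. Itga3, for another alpha chain of laminin receptors, fell by 2.66 on the log2 scale to 8.57 ± 0.898 CPM in deficient libraries, against 50.9 ± 6.60 CPM in regular libraries (SD, n = 7 and 3; adjusted p = 7.35e-11, edgeR). Itgb5, a further partner of αv, fell by 0.71 (adjusted p = 0.00347, edgeR). Itga2, of a collagen receptor, rose by 1.90 to 6.72 ± 1.49 CPM in deficient libraries, against 1.67 ± 0.529 CPM in regular libraries. Itga2b, the αIIb chain that pairs with β3 on platelets, rose by 1.24 to 7.31 ± 1.98 CPM in deficient libraries, against 2.91 ± 0.406 CPM in regular libraries. Itga2b and Itgb3 thus differed in opposite directions, as did Itgav and Itgb3.

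Among genes that regulate integrin activation from inside the cell or tie integrins to actin, 34 of 39 were tested. Of these, 5 were higher and 19 lower, against 29.4% and 28.6% of all genes tested, and the median was -0.26. The number lower was 15 with total-count scaling and 15 without the count filter. Fyb, the adaptor ADAP, fell by 2.13 on the log2 scale to 44.1 ± 3.64 CPM in deficient libraries, against 182 ± 7.49 CPM in regular libraries (adjusted p = 9.38e-12, edgeR). Skap1, the adaptor that binds ADAP, fell by 0.91 to 138 CPM in deficient libraries, against 243 CPM in regular libraries. Flna, for the actin crosslinker filamin A that binds beta tails, rose by 0.68 to 541 ± 31.4 CPM in deficient libraries, against 318 ± 12.2 CPM in regular libraries. Rsu1, a partner of the ILK and PINCH complex, rose by 0.70. Chosen after their values were seen, Tln1 (talin, which binds beta tails and switches integrins on) fell by 0.85 to 179 ± 20.6 CPM in deficient libraries, against 305 ± 14.4 CPM in regular libraries, and Vcl (vinculin, which links talin to actin) fell by 1.62. Fermt3, for kindlin-3, was also chosen so and fell by 0.40, with deficient libraries 5 to 7 at 140 to 149 CPM and the regular libraries at 148 to 169 CPM. Within batch 2 this list had 12 genes lower.

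Of the ligands of integrins and CD44, 13 of 23 were tested, with 5 higher, 3 lower and a median of 0.11. Icam2 and Icam1, ligands of LFA-1, rose by 2.28 and 1.74 on the log2 scale, with Icam1 at 46.9 ± 13.5 CPM in deficient libraries and 13.4 ± 2.24 CPM in regular libraries. The laminin chain genes Lama5 and Lamc1 fell by 1.05 and 0.49, and Lamc1 did not pass within batch 2 at -0.20. Thbs1, of the matrix protein thrombospondin and chosen after its values were seen, had 97 counts in the deficient libraries and 0 in the regular libraries. Taking 3 counts for the whole regular group as the floor, it was at least 7.42-fold higher, and the list median is 0.11 also with it at this bound. Icam1 and the cytotoxic markers were both higher in deficient libraries 5 to 7, where Icam1 read 52.8 to 66.0 CPM against 32.5 to 39.1 CPM in libraries 1 to 4, and this was not tested.

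Selectins and the enzymes that make selectin ligands had 16 of 18 genes tested, with 3 higher, 4 lower and a median of -0.08. The number higher was 1 without any single regular library and within batch 1. St3gal4, a sialyltransferase of selectin ligands, fell by 1.14 on the log2 scale to 38.5 CPM in deficient libraries, against 80.5 CPM in regular libraries (adjusted p = 1.16e-07, edgeR). B4galt1, a galactosyltransferase, fell by 0.47. Tpst1, a tyrosine sulfotransferase, an activity that PSGL-1 needs to bind P-selectin, rose by 0.75 and did not pass within batch 2 at 0.45. C1galt1c1, the chaperone of core O-glycan synthesis, had a log2 fold change of 0.28 (adjusted p = 0.0459, edgeR) and lost its call without any 1 of 8 of the 10 libraries, within either batch, and with DESeq2 or limma.

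The remaining lists cover the partners of CD44 and other surface proteins. CD44 partners and splicing factors had 12 of 15 genes tested, with 4 higher, 4 lower and a median of 0.03. The number higher was 2 without regular library 2 and within batch 2. Ezr, for ezrin that links CD44 to actin, fell by 1.01 to 182 ± 19.8 CPM in deficient libraries, against 346 ± 22.5 CPM in regular libraries, whereas its relative Msn, for moesin, rose by 0.41 to 204 ± 19.0 CPM in deficient libraries, against 145 ± 0.356 CPM in regular libraries. Khdrbs1, the splicing factor Sam68 that promotes variant exons of CD44, fell by 0.58. Cd74, a class II chaperone that can bind CD44, rose by 4.91 to 21.1 ± 5.64 CPM in deficient libraries, against 0.671 ± 1.16 CPM in regular libraries. Cd74 is also made by B cells, whose markers stand above, and regular library 3 held all of its 13 regular counts. Without that library its fitted log2 fold change was 10.54, which is no bound.

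Proteins that associate with integrins in the membrane had 11 of 12 genes tested, with 6 higher, 3 lower and a median of 0.25. The tetraspanin genes Cd82 and Cd81 rose by 0.64 and 0.47 on the log2 scale, with Cd82 at 315.5 ± 17.4 CPM in deficient libraries and 191 ± 9.13 CPM in regular libraries. Cd37 and Cd53, also tetraspanins, fell by 1.17 and 0.28. Adhesion molecules of the immunoglobulin superfamily had 14 of 16 genes tested, with 3 higher, 7 lower and a median of -0.17. The number lower was 4 without regular library 2, without regular library 3, within batch 1 and without the count filter. With total-count scaling 4 were higher and 4 lower, and without deficient library 5 the number higher was 5. Crtam, an adhesion receptor of activated T cells with cytotoxic traits, rose by 3.58 to 53.6 ± 11.2 CPM in deficient libraries, against 4.18 ± 0.679 CPM in regular libraries, and Cd226, for the receptor DNAM-1, rose by 0.57. Cd2, for the T cell receptor of CD48 in the mouse, fell by 0.98 to 176 ± 23.1 CPM in deficient libraries, against 328 ± 12.2 CPM in regular libraries, and Nectin2, a ligand of DNAM-1, fell by 1.63.

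**Figure D5:**
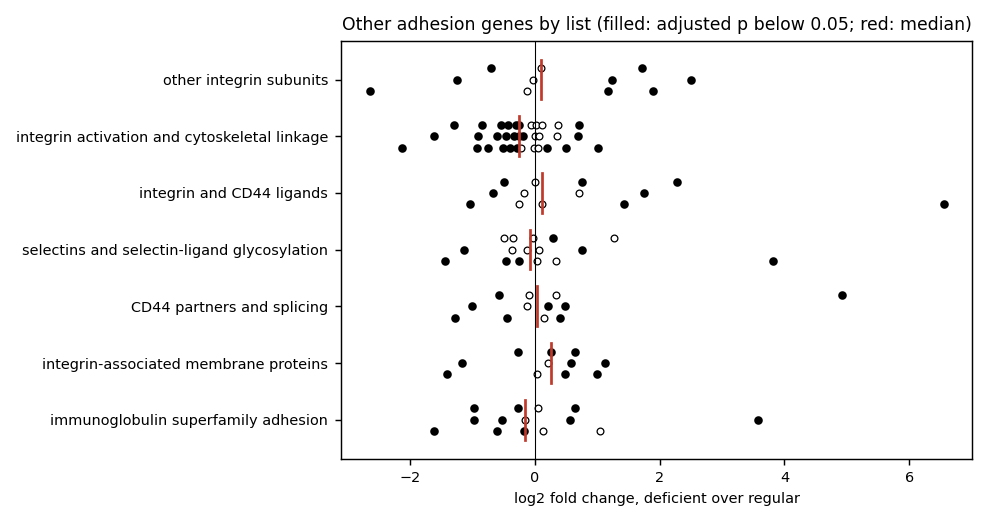
Log2 fold change of deficient over regular cells (horizontal axis) for the tested genes of 7 other adhesion lists (rows). Points are genes, filled at an adjusted p below 0.05 (edgeR), and red lines mark medians, from -0.26 for integrin activation to 0.25 for integrin-associated membrane proteins. The point at the far right of the ligand list is Thbs1, with 0 counts in regular libraries, whose fitted fold is no bound.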

How the data were processed

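Total RNA of TH2 cultures was sequenced after a stranded TruSeq preparation that depletes globin, per the labels' protocols. The authors deposited raw read counts per Ensembl gene, with 1 column per library. STAR 2.7.10a, HTSeq 0.13.5 and GRCm38 are named in the submitters' processing notes. Neither annotation release nor strand setting is given in the sources used here. IDs were matched to GENCODE M21 (49412 of 49671). Groups and batches follow the labels, and replicate numbers, in accession order, only name libraries.

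Counts were filtered with filterByExpr (minimum count 10), scaled by TMM and fitted with edgeR 4.0.16 in R 4.3.3 (glmQLFit, robust, terms for batch and diet). Log2 fold changes are deficient minus regular. On simulated counts for deficient against regular (13349 genes), the test recovered 32 of 62 genes at 1.5-fold, 51 of 64 at 2-fold and 53 of 57 at 4-fold, with 6 false calls among 142. No batch difference and no split among the deficient libraries was simulated, and far fewer genes were changed than were called in the data. The false calls there thus do not measure those in the data. Alternatives used limma 3.58.1 and DESeq2 1.42.0. Figures used matplotlib 3.10.9. The 10 genes, the lists and the alternatives were chosen with earlier results of these data known. Named list genes are the 2 of smallest adjusted p in each direction per list, with a mean of at least 1 CPM, unless marked as chosen after their values were seen.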

Additional observations from a re-analysis of the deposited data

How the results depend on the processing

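Over 23 alternatives (other scalings, filters and tests, no batch term, each batch alone, each library left out, deficient libraries 5 to 7 or 1 and 3 left out, and a threshold of 0.01), the direction of each of the 10 genes was kept. No call is read from the fit without deficient libraries 5 to 7. In the others the calls of Itga4, Itga6, Itgav, Itgb1, Itgb3 and Cd44 were kept. Itgal passed with total-count scaling (0.30) and without the count filter (0.32), settings that put the median of all genes at 0.10 and 0.19, and ranged from 0.15 to 0.27 with 1 library left out. Selplg passed without deficient library 5 (-0.35), was -0.02 in batch 2 alone, and ranged from -0.37 to -0.21 with 1 library left out. Without deficient libraries 5 to 7, which were set apart by their values, it was -0.52. Itgb7 did not pass without the count filter (-0.64) or at a threshold of 0.01 (-0.75, adjusted p = 0.0106, edgeR), nor did Itgb2 in batch 2 alone (-0.14). In each case the cause was not tested. The batch term called 2 of the 10 genes without the count filter. The 5 ratios kept their direction in 12 alternatives, and their calls in those that did not leave out deficient libraries 5 to 7 together. For the named list genes, 627 alternative values kept the call and the direction and 17 kept only the direction, most of them of C1galt1c1. Counts for whole lists moved by more than 1.5 times in 22 of 322 cases, all in the lists of other integrins, activation, selectins, CD44 partners and the immunoglobulin superfamily. The tallies of named list genes and of whole lists include the fit without deficient libraries 5 to 7, from which no call is read on its own.

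No paired analysis was possible because the labels carry no replicate numbers. Single values of genes under about 10 CPM rest on few counts in the shallower regular libraries, and each group of regular values has 3 libraries.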

Other observations

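Several adhesion genes outside the 10 were chosen after their values were seen because deficient libraries 5 to 7 stood apart in them too. Slamf6, a homophilic receptor of lymphocytes, read 55.0 to 81.9 CPM in deficient libraries 5 to 7 and 142.5 to 176 CPM in deficient libraries 1 to 4, against 46.7 to 52.6 CPM in regular libraries. Its diet difference did not pass (log2 1.05, adjusted p = 0.0636, edgeR). Adam10, a protease that can shed CD44, read 215 to 223 CPM in deficient libraries 5 to 7 and 301.5 to 347 CPM in deficient libraries 1 to 4, against 181 to 190 CPM in regular libraries (log2 0.48, adjusted p = 0.0144, edgeR). Spp1, for osteopontin, a ligand of CD44 and αv integrins, read 32.8 to 38.1 CPM in deficient libraries 5 to 7 and 9.96 to 18.7 CPM in deficient libraries 1 to 4, against 7.21 to 9.14 CPM in regular libraries (log2 1.43, adjusted p = 0.0128, edgeR). Libraries 5 to 7 also held the higher summed B cell and cytotoxic markers, and their part in these values was not tested.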
